A study of Mus musculus with 13 samples.

Results

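The transcription factor p53 and genes listed as its targets were examined in mouse Th17 cells, the helper T cells that make interleukin 17. The set held 37 genes, chosen as rows of the deposited count table whose Ensembl gene ID maps to a fixed list of symbols. These were Trp53 itself and 36 genes listed as p53 targets. Whether p53 controls each of them in these cells was not tested. All 37 were among the 56941 rows of the table. Of these, 36 passed the filter on low counts and Dram1 did not. The table covered 6 RNA-seq libraries. The 3 libraries labelled KO came from mice with the genotype Chaf1b fl/fl;Il17fCre+, a conditional knockout of Chaf1b, which encodes a subunit of the histone chaperone CAF-1 that loads histones onto newly copied DNA. The 3 libraries labelled WT came from mice with the genotype Chaf1bWT. In both groups, naive CD4+ T cells from spleen were activated and kept under Th17-polarizing conditions for 72 h, and ages and further treatments are not given in the labels. The comparison asks how the p53 target genes differ between Th17 cultures of the 2 genotypes.

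The genotypes limit what the comparison can show. A Cre recombinase driven by Il17f acts only in cells that switch on Il17f, and the WT label does not say whether those mice carried the Cre. The targeted gene did not check the labels. Chaf1b had 16.3, 14.9 and 13.5 CPM (counts scaled to the TMM-normalized library size) in the KO libraries, against 13.2, 11.4 and 11.5 CPM in the WT libraries. Its values were therefore higher in the KO libraries, by a log2 fold change (KO over WT) of 0.31 ± 0.11 (SE). The adjusted p was 0.130 (edgeR, quasi-likelihood F-test, Benjamini-Hochberg over all genes tested). Which exons the deletion removes is not given in the sources used here, so a count over the whole gene need not fall. The groups are called the libraries labelled KO and WT for that reason. Directions below are those of the labels.

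p53 is a transcription factor that cells keep at low activity through its ubiquitin ligase Mdm2 and the related inhibitor Mdm4. Damaged DNA, stalled replication and other stresses release it, and it then switches on genes that stop the cell cycle, repair DNA or bring about cell death. Several of its targets, Mdm2 among them, feed back to shut it off. In T cells many of the same genes are also induced by other routes, such as the antigen receptor, and p53 is controlled mainly as a protein, so that its mRNA need not follow its activity.

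Of the 36 tested genes, 7 (19.4%) passed the threshold of 0.05 on the edgeR adjusted p, beside 6.39% of all 14681 genes tested. Plk3, Plk2, Gadd45g and Perp were the 4 that rose, beside 3.92% of all genes. Trp53inp1, Mdm4 and Phlda3 were the 3 that fell, beside 2.47% of all genes. Trp53, Mdm2 and Cdkn1a did not pass. The changes went both ways: 17 of the 36 fold changes were positive and 19 negative, with a median log2 fold change of -0.01, and the median over all genes tested was also -0.01. Their median size, regardless of sign, was 0.09 on the log2 scale, beside 0.13 for all genes. The set was not matched to all genes for level: 7 of the 36 averaged under 10 CPM, against 6069 of the 14681. The shares past the threshold and the median sizes therefore do not compare genes of like level. The KO and WT values did not overlap for 14 of the 36, with 7 above and 7 below WT. Such separation was seen for 26.8% of all genes, 14.4% with KO above and 12.4% with KO below.

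Plk3, Plk2 and Trp53inp1 passed in each of the 6 comparisons that left out 1 library. The other 4 calls were lost in 4 (Mdm4, Perp and Phlda3) or 5 (Gadd45g) of these 6 comparisons, as given beside each gene. Leaving out WT replicate 2, KO replicate 1, KO replicate 2 or KO replicate 3 left 3 genes past the threshold, while 2.42%, 1.94%, 2.07% and 2.15% of all genes passed. Leaving out WT replicate 1 raised the number to 10 of 36 (27.8%), while 19.7% of all genes passed. Leaving out WT replicate 3 gave 7 genes, beside 6.77% of all genes. Other settings, with all libraries kept, gave 7 genes with DESeq2-type size factors (6.42% of all genes), 7 under a stricter filter on low counts (7.8%), 6 with upper-quartile scaling (6.38%) and 6 in limma-voom (5.89%). DESeq2 gave 8 (9.58%), the fit without a filter 8 (6.01%), and limma-voom with a quality weight for each library 11 (19.5%). A fit with the replicate number as a block, whose pairing the libraries did not bear out, gave 5 (4.57%). The RNA came from whole cultures, so fewer cells of a kind and less RNA per cell cannot be told apart in any of these values.

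**Figure D1:**
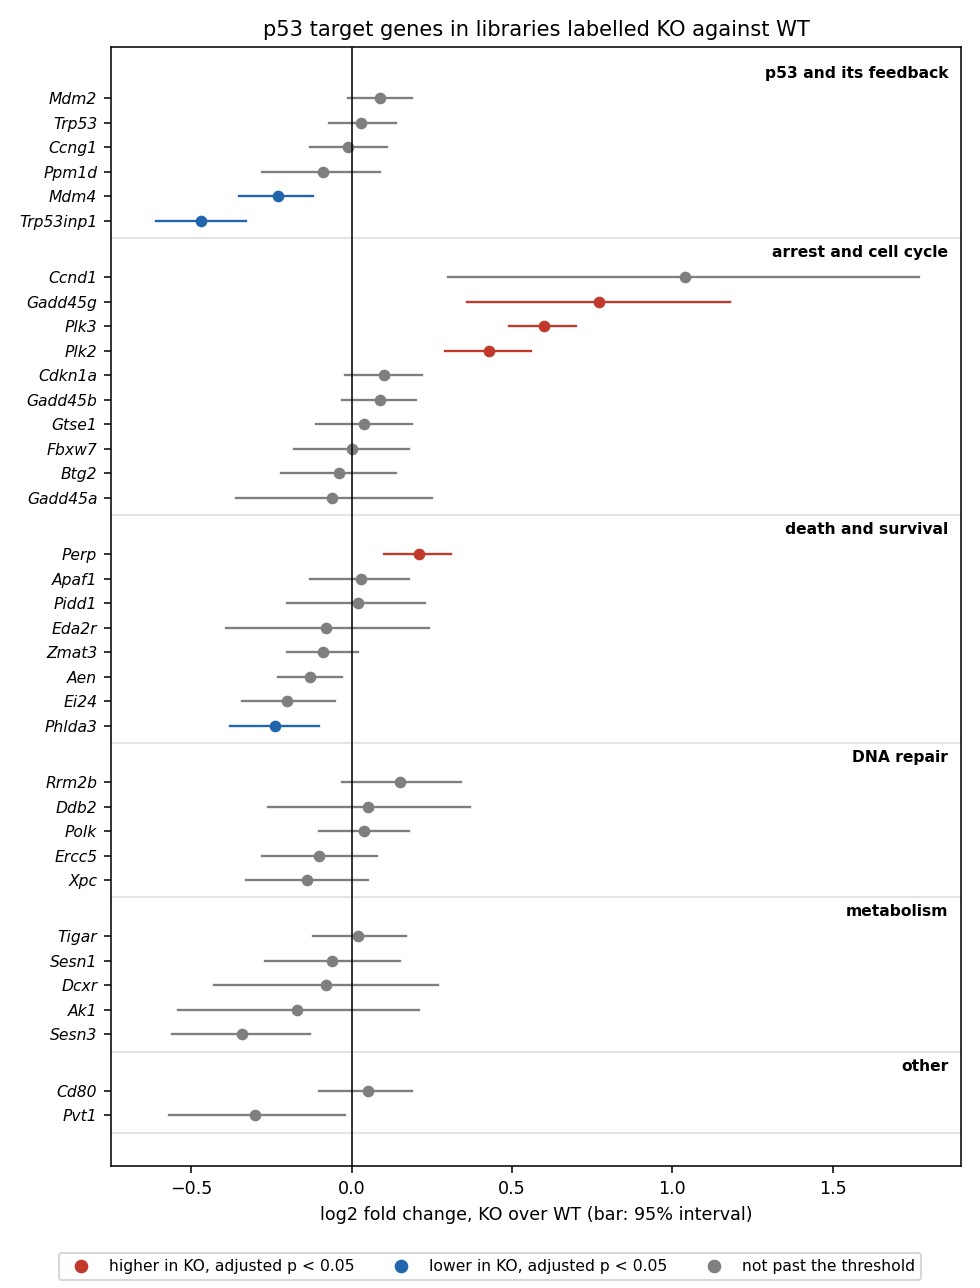
Log2 fold change (KO over WT) of each of the 36 tested p53 target genes, grouped by role, with 3 libraries a group. Points are edgeR estimates, bars are 95% intervals and colours mark an adjusted p under 0.05: the red points are the 4 genes that rose, the blue points the 3 that fell, and the widest bar is that of Ccnd1, which had 44 counts or fewer in every library.

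The feedback genes set the activity of p53. Of 6, 2 fell, beside 2.47% of all genes tested. Both encode regulators of p53 itself, while p53's own transcript and that of Mdm2 did not pass the test. Trp53 had 232, 236 and 228 CPM in the KO libraries, against 237, 224 and 219 CPM in the WT libraries. The groups overlapped, with a log2 fold change of 0.03 ± 0.05 (SE), a 95% interval of -0.07 to 0.14 and an adjusted p of 0.748. Mdm2, the ubiquitin ligase that marks p53 for degradation, had 198, 199 and 197 CPM in the KO libraries, against 183, 185 and 189.6 CPM in the WT libraries. Every KO value lay above every WT value, but the log2 fold change of 0.09 ± 0.04 (95% interval -0.01 to 0.19) had an adjusted p of 0.268.

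Mdm4, a relative of Mdm2 that holds p53 inactive by binding it, had 166, 180.4 and 181 CPM in the KO libraries, against 201, 211 and 208 CPM in the WT libraries. The groups did not overlap. It averaged 176 ± 8.79 CPM in the KO libraries and 207 ± 5.06 CPM in the WT libraries (SD, n = 3 each), and fell by 0.23 ± 0.05 on the log2 scale (adjusted p = 0.0220). It no longer passed without WT replicate 2 (adjusted p = 0.120) or without KO replicate 1, 2 or 3 (adjusted p of 0.142, 0.0846 and 0.0772). Trp53inp1 encodes a p53-induced nuclear protein that assists p53 and also takes part in autophagy. It had 141, 132 and 145 CPM in the KO libraries, against 180.4, 188 and 211 CPM in the WT libraries. All KO values were lower than all WT values, and this was the largest fall among the 36 genes. It averaged 139 ± 6.43 CPM in the KO libraries and 193 ± 15.9 CPM in the WT libraries (SD, n = 3 each), a log2 fold change of -0.47 ± 0.06 (adjusted p = 0.00151). In all 14 alternative settings it kept its sign and passed, with log2 fold changes of -0.52 to -0.40. The remaining pair overlapped between groups. Ppm1d, a phosphatase that removes activating phosphates from p53 and its upstream kinases, had a log2 fold change of -0.09 ± 0.09 (adjusted p = 0.590). Ccng1, cyclin G1, which directs a phosphatase to Mdm2, had one of -0.01 ± 0.05 (adjusted p = 0.931).

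**Figure D2:**
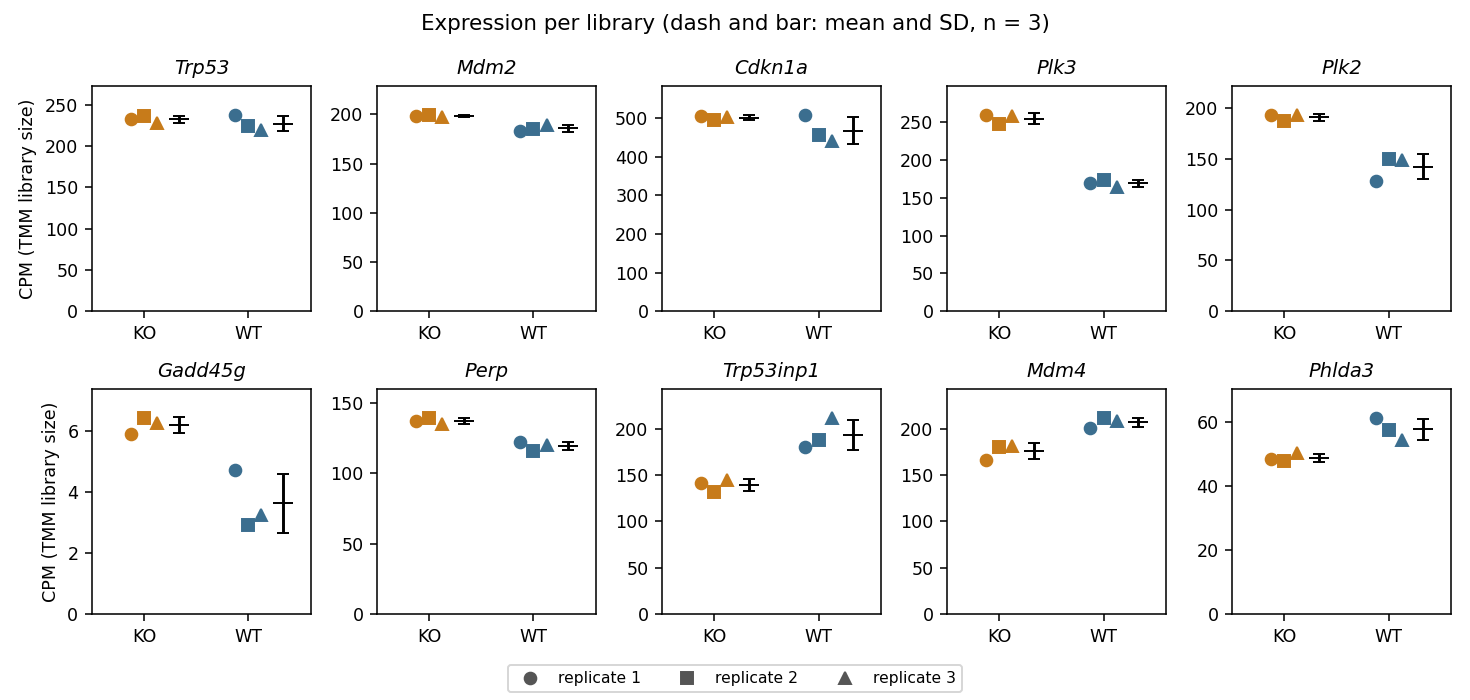
CPM in each library of the 7 p53 target genes past the threshold and of Trp53, Mdm2 and Cdkn1a, with the KO libraries left of the WT libraries in each panel and each panel on its own scale. Each point is 1 library, and the dash and bar beside it are the group's mean and SD (n = 3). The KO and WT points separate for the 7 genes and for Mdm2, and overlap for Trp53 and Cdkn1a.

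Genes of arrest and the cell cycle held 3 of the 4 rises. Of 10 tested, 3 rose, beside 3.92% of all genes tested. Cdkn1a, which encodes the cyclin-dependent kinase inhibitor p21 and is the best known arrest target of p53, was not among them. It had 506, 495 and 504 CPM in the KO libraries, against 508, 456 and 441 CPM in the WT libraries. WT replicate 1 stood at the KO level, and the other WT values lay below it. The log2 fold change was 0.10 ± 0.05 (95% interval -0.02 to 0.22, adjusted p = 0.324). Without WT replicate 1 it was 0.16 and passed (adjusted p = 0.00172), and it also passed at 0.13 when limma-voom weighted each library by its quality (adjusted p = 0.0153).

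Plk3 and Plk2 encode polo-like kinases, stress-responsive relatives of the mitotic kinase Plk1. Plk3 had 259, 247 and 258 CPM in the KO libraries, against 169, 174 and 164 CPM in the WT libraries. The groups were far apart, with no KO value near a WT value. It averaged 255 ± 6.45 CPM in the KO libraries and 169 ± 4.98 CPM in the WT libraries (SD, n = 3 each), a 1.51-fold level or a log2 fold change of 0.60 ± 0.05 (adjusted p = 3.38e-05). This was the smallest adjusted p among the 36 genes. Plk2 had 193, 187 and 193 CPM in the KO libraries, against 128, 149.5 and 149 CPM in the WT libraries. The groups did not overlap, and WT replicate 1 was the lowest library. It averaged 191 ± 3.36 CPM in the KO libraries and 142 ± 12.6 CPM in the WT libraries (SD, n = 3 each), a 1.34-fold level or a log2 fold change of 0.43 ± 0.06 (adjusted p = 0.00256). Both kinases passed in all 14 alternative settings, with log2 fold changes of 0.57 to 0.62 for Plk3 and 0.35 to 0.46 for Plk2. The span of Plk3 overlaps that of Tctex1d4 in RefSeq. The headers record no strand option in the counting for 5 libraries and list none by name for KO replicate 1. Tctex1d4 had 8 counts or fewer in every library. Plk1, which is not a p53 target of this set and peaks in mitosis, had a log2 fold change of -0.02 ± 0.06 (adjusted p = 0.902).

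The Gadd45 genes encode small stress proteins that bind p21, cyclin-dependent kinase 1 and MAP kinase kinases, and Gadd45b and Gadd45g also act in T helper cell signalling. Gadd45g had 5.92, 6.42 and 6.27 CPM in the KO libraries, against 4.73, 2.92 and 3.25 CPM in the WT libraries. The groups did not overlap, and WT replicate 1 was the WT library nearest to KO. It averaged 6.21 ± 0.256 CPM in the KO libraries and 3.63 ± 0.963 CPM in the WT libraries (SD, n = 3 each), a log2 fold change of 0.77 ± 0.19 (adjusted p = 0.0333). Between 112 and 245 counts a library lay behind these values. It no longer passed without WT replicate 2 or 3 (adjusted p of 0.142 and 0.0618) or without KO replicate 1, 2 or 3 (adjusted p of 0.125, 0.141 and 0.133). Gadd45a and Gadd45b overlapped between groups. Gadd45b had a log2 fold change of 0.09 ± 0.05 (adjusted p = 0.387) and Gadd45a one of -0.06 ± 0.14 (adjusted p = 0.866).

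Ccnd1 encodes cyclin D1, which drives entry into the cell cycle. It was close to the filter on low counts, with 41, 44 and 36 counts in the KO libraries, against 17, 22 and 28 counts in the WT libraries. All KO values lay above all WT values, at 1.10 ± 0.106 CPM in the KO libraries and 0.534 ± 0.106 CPM in the WT libraries (SD, n = 3 each). The log2 fold change of 1.04 ± 0.34 was the largest of the set and the least precise (95% interval 0.30 to 1.77, adjusted p = 0.0985). It passed only when limma-voom weighted each library by its quality (adjusted p = 0.0486). Btg2, an antiproliferative cofactor of mRNA decay, Gtse1, a microtubule-binding protein of the G2 phase, and Fbxw7, the substrate receptor of a ubiquitin ligase for cyclin E and Myc, overlapped between groups. Their log2 fold changes were -0.04 ± 0.08 for Btg2, 0.04 ± 0.07 for Gtse1 and 0.00 ± 0.08 for Fbxw7, with adjusted p from 0.778 to 0.990.

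The death and survival genes moved in both directions. Of 8 tested, 1 rose and 1 fell, beside 3.92% and 2.47% of all genes tested. Perp, a membrane protein of cell junctions that p53 induces during apoptosis, had 137, 139 and 135 CPM in the KO libraries, against 122, 116 and 119.9 CPM in the WT libraries. The groups did not overlap. It averaged 137 ± 2.03 CPM in the KO libraries and 119 ± 3.39 CPM in the WT libraries (SD, n = 3 each), a log2 fold change of 0.21 ± 0.05 (adjusted p = 0.0281). It no longer passed without WT replicate 2 (adjusted p = 0.151) or without KO replicate 1, 2 or 3 (adjusted p of 0.148, 0.163 and 0.113).

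Phlda3, a protein with a lipid-binding domain that restrains the survival kinase Akt, had 48.3, 47.7 and 50.2 CPM in the KO libraries, against 61.0, 57.4 and 54.2 CPM in the WT libraries. All KO values were below all WT values. It averaged 48.7 ± 1.31 CPM in the KO libraries and 57.5 ± 3.42 CPM in the WT libraries (SD, n = 3 each), a log2 fold change of -0.24 ± 0.06 with an adjusted p of 0.0499, at the edge of the threshold. It no longer passed without WT replicate 2 (adjusted p = 0.165), without KO replicate 1, 2 or 3 (adjusted p of 0.191, 0.197 and 0.127), with upper-quartile scaling (adjusted p = 0.0536) or in limma-voom (adjusted p = 0.0610).

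Aen, Ei24 and Zmat3 had KO values wholly below WT values without passing. Aen, an exonuclease that degrades DNA in apoptosis, had 135, 134 and 137 CPM in the KO libraries, against 146, 147 and 150.1 CPM in the WT libraries. Its log2 fold change was -0.13 ± 0.05 (adjusted p = 0.136), and it passed without WT replicate 1 (adjusted p = 0.0250) and with quality weights (adjusted p = 0.0356). Ei24, a membrane protein of the endoplasmic reticulum needed for autophagy, had 63.6, 62.5 and 62.9 CPM in the KO libraries, against 79.2, 68.4 and 68.9 CPM in the WT libraries. The KO libraries were closely grouped and WT replicate 1 was the highest. Its log2 fold change was -0.20 ± 0.07 (adjusted p = 0.111). Zmat3, an RNA-binding zinc finger protein, had one of -0.09 ± 0.05 (adjusted p = 0.344). The other three overlapped between groups. Apaf1, the scaffold of the apoptosome, had a log2 fold change of 0.03 ± 0.07, Pidd1, which activates caspase-2, one of 0.02 ± 0.10, and Eda2r, a death receptor of the TNF receptor family, one of -0.08 ± 0.14. Dram1, a lysosomal membrane protein of autophagy, had 2, 8 and 6 counts in the KO libraries, against 23, 20 and 6 counts in the WT libraries. These overlap, and with 16 counts in all KO libraries together against 49 in the WT libraries it was too sparse for the filter. Without the filter its adjusted p was 0.294.

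None of the 5 repair genes passed in edgeR, none had an unadjusted p under 0.05, and none passed in DESeq2, limma-voom or any other of the 14 alternative settings. Rrm2b, the p53-induced subunit of ribonucleotide reductase that supplies building blocks for repair, had 19.1, 18.0 and 18.3 CPM in the KO libraries, against 16.2, 16.1 and 17.5 CPM in the WT libraries. It alone among the 5 did not overlap between groups, with a log2 fold change of 0.15 ± 0.09 (adjusted p = 0.338). Xpc and Ddb2, which recognise damaged bases for nucleotide excision repair, had log2 fold changes of -0.14 ± 0.09 and 0.05 ± 0.14. Ercc5, a nuclease that cuts beside the damage, had a log2 fold change of -0.10 ± 0.08, and Polk, a polymerase that copies past damaged bases, one of 0.04 ± 0.06. The adjusted p of these 4 ran from 0.388 to 0.877. For the repair genes as a group, the 95% intervals lay between -0.33 and 0.37 on the log2 scale.

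None of the 5 metabolic genes passed in edgeR. Sesn3 alone had an unadjusted p under 0.05 and passed in other settings. The sestrins Sesn1 and Sesn3 restrain the growth kinase complex mTORC1. Sesn3 had 58.5, 67.3 and 63.2 CPM in the KO libraries, against 93.5, 71.9 and 74.4 CPM in the WT libraries. All KO values were below all WT values, and WT replicate 1 stood above the rest. Its log2 fold change was -0.34 ± 0.10 (adjusted p = 0.0687). Leaving out WT replicate 1 gave -0.21, which passed (adjusted p = 0.00763). It also passed without WT replicate 3 (adjusted p = 0.0450), in DESeq2 (adjusted p = 0.0111), without the filter on low counts (adjusted p = 1.52e-05) and with quality weights (adjusted p = 0.0200). Sesn1 overlapped between groups, with a log2 fold change of -0.06 ± 0.10. So did Tigar, a phosphatase that lowers glycolytic flux, at 0.02 ± 0.07, Dcxr, a carbonyl and sugar reductase, at -0.08 ± 0.16, and Ak1, an adenylate kinase, at -0.17 ± 0.17. The remaining pair also overlapped between groups. Pvt1, a long noncoding RNA encoded beside Myc, had a log2 fold change of -0.30 ± 0.12 (adjusted p = 0.196), and Cd80, a costimulatory ligand best known on antigen-presenting cells, had one of 0.05 ± 0.06 (adjusted p = 0.741).

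The intervals of the fold changes were wider at low levels. Of the 29 genes that did not pass, 23 had at least 10 CPM, and their 95% intervals had a median half-width of 0.15 on the log2 scale. For 18 of these the whole interval lay within 0.3 of zero on the log2 scale. The others were Ei24, Xpc, Rrm2b, Sesn3 and Pvt1. The 6 under 10 CPM were Gadd45a, Ccnd1, Eda2r, Ddb2, Dcxr and Ak1, with half-widths of 0.31 to 0.74. Among the 29, the intervals of Ccnd1, Aen, Ei24, Sesn3 and Pvt1 excluded zero although their adjusted p did not pass. WT libraries spread more widely than KO libraries for most genes: the SD of log2 CPM was larger among WT in 28 of the 36 (77.8%), beside 66.1% of all genes tested.

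p53 binds DNA as a tetramer on pairs of a short half-site. The promoters are shown because the genes were listed as p53 targets, so that half-sites near each start can be read beside the fold changes. RefSeq promoter windows of GRCm38.p6 covered 250 bases before and 50 bases after an annotated start. They were found for 29 of the 37 genes, with 40 windows in all, so that some genes had more than 1. Both strands were searched for the p53 half-site, and a gene held a match if any of its windows did. A match was present in 11 of the 29 (37.9%), beside 9.55% of 27025 genes with a window. Of the 7 genes that passed, Trp53inp1 and Perp had no window and were not searched, and 0 of the other 5 held a match. The 11 with a match were Aen, Ccng1, Cdkn1a, Ei24, Gadd45a, Gtse1, Mdm2, Polk, Ppm1d, Sesn1 and Trp53, and their log2 fold changes lay between -0.20 and 0.10. Many p53 sites lie farther from the start or in introns, so a window without a match says only that these letters are not in it. The matches of 4 feedback and arrest genes and of Ei24, the gene among the 11 with the lowest fold change, are given 5′ to 3′ on the gene's strand, with the half-site in capitals.
Cdkn1a (chr17:29090891-29090930, + strand): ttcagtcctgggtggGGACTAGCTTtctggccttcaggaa
Cdkn1a (chr17:29090913-29090952, + strand): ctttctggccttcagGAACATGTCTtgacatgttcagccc
Mdm2 (chr10:117710920-117710959, - strand): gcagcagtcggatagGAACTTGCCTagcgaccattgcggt
Ccng1 (chr11:40755447-40755486, - strand): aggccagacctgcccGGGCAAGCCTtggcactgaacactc
Trp53 (chr11:69580269-69580308, + strand): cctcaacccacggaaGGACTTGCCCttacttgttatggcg
Ei24 (chr9:36797320-36797359, - strand): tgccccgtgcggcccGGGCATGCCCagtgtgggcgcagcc
The first bases of the Cdkn1a matches lay 73 and 51 bases before the annotated start of their window, which need not be the gene's main start. Cdkn1a was the only gene with more than 1 match. Only exact matches to the half-site are in capitals, so an adjoining half-site with a mismatch would not be marked. Beside these sequences, Cdkn1a, Mdm2, Ccng1 and Trp53 had log2 fold changes of 0.10, 0.09, -0.01 and 0.03, none past the threshold.

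**Figure D3:**
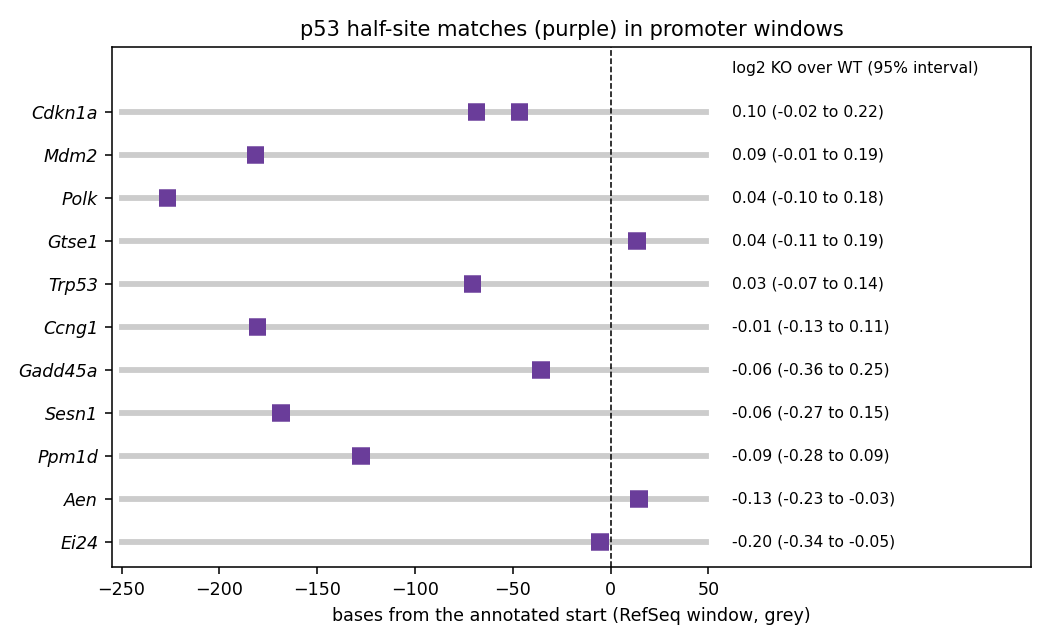
Position of each p53 half-site match (purple) within the promoter window (grey) of the 11 genes that hold one, ordered by log2 fold change. Positions are in bases from the annotated start of the window that holds the match. The values at the right are the log2 fold change (KO over WT) with its 95% interval: all lie between -0.20 and 0.10, and only Cdkn1a has 2 matches.

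Plk2, one of the genes that rose, held no p53 half-site in its window but held the cAMP response element TGACGTCA, which is bound by CREB and ATF factors. That element was found on either strand in 3 of the 29 genes with a window (10.3%), Plk2, Btg2 and Ppm1d, beside 2.03% of all genes with a window. The whole Plk2 window is given with the element in capitals.
Plk2 (chr13:110394794-110395093, + strand): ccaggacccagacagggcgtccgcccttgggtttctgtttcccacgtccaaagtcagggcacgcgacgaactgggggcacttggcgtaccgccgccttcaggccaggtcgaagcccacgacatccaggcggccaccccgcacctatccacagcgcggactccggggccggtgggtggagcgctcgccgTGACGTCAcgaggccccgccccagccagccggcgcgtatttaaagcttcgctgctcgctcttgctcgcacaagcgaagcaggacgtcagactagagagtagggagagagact
The Plk3 window held neither motif. Of the 3 genes with the element, only Plk2 passed: Btg2 and Ppm1d had log2 fold changes of -0.04 and -0.09. The AP-1 element TGANTCA, bound by Fos and Jun proteins, was found on either strand in the windows of Ak1, Cd80 and Mdm4 (3 of 29, beside 8.97% of all genes). A match is a description of letters and not evidence of binding.

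Genes that control p53 without being in the set were read from the same test. Of 24, 2 rose and 1 fell, so that 12.5% passed, beside 6.39% of all genes tested. This list and the gene lists below were fixed with earlier results of these data known. Their shares past the threshold are descriptions and not tests of the lists. The damage kinases Atm, Atr, Chek1, Chek2 and Prkdc did not pass. Cdkn2a had 22.5, 21.8 and 19.6 CPM in the KO libraries, against 9.77, 12.0 and 10.8 CPM in the WT libraries. The groups were well apart, with a 1.96-fold level or a log2 fold change of 0.97 ± 0.11 (adjusted p = 3.62e-04), and the call held in all 14 alternative settings. The gene encodes both p16, an inhibitor of cyclin-dependent kinases 4 and 6, and ARF, which blocks Mdm2, and counts summed over the gene cannot tell them apart. Prmt5, an arginine methyltransferase that modifies p53, rose by 0.25 ± 0.05 on the log2 scale (adjusted p = 0.00841). Usp28, a deubiquitinase that acts on p53 and its partner Trp53bp1, had a log2 fold change of -0.49 ± 0.11 (adjusted p = 0.0253). Prmt5 and Usp28 failed to pass in 4 of the 6 comparisons that left out a library, with adjusted p of up to 0.0819 for Prmt5 and 0.138 for Usp28. Atm, the kinase that answers double-strand breaks, had 28.3, 29.1 and 31.5 CPM in the KO libraries, against 29.2, 42.5 and 41.4 CPM in the WT libraries. WT replicate 1 fell among the KO values. The log2 fold change was -0.35 ± 0.13 (adjusted p = 0.147), and without WT replicate 1 it was -0.50 and passed (adjusted p = 3.62e-06). Atm also passed without the filter on low counts (adjusted p = 0.00116) and when limma-voom used quality weights (adjusted p = 8.40e-04). It did not pass in the other 11 of the 14 alternative settings. Chek1, the kinase that answers stalled replication, had a log2 fold change of 0.25 ± 0.10 (adjusted p = 0.187). Trp63 and Trp73, the other members of the p53 family, had at most 12 counts in any library and were not tested.

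Further known p53 targets outside the set numbered 31. Of these 28 were tested. The classic death targets did not pass. Bax, which opens the outer mitochondrial membrane, had a log2 fold change of -0.03 ± 0.06 (adjusted p = 0.798). The activators Bbc3 (Puma) and Pmaip1 (Noxa) had log2 fold changes of -0.16 ± 0.07 and 0.12 ± 0.08 (adjusted p of 0.213 and 0.440). Bbc3 passed in 2 of the 14 alternative settings. These were the fit without WT replicate 3 (adjusted p = 0.0364) and limma-voom with quality weights (adjusted p = 0.0396). Fas, the death receptor that also limits T cell expansion, had one of -0.07 ± 0.07 (adjusted p = 0.617). The median over the 28 was -0.04.

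The p53 and p21 axis is known to repress cell-cycle genes through the DREAM complex. Of 18 such genes, 2 rose (11.1%, beside 3.92% of all genes tested), with a median log2 fold change of 0.05. Rrm2, the S-phase subunit of ribonucleotide reductase, rose by 0.43 ± 0.05 on the log2 scale (adjusted p = 0.00104), and Mcm5, a subunit of the replicative helicase, by 0.43 ± 0.05 (adjusted p = 3.62e-04). Both passed in all 14 alternative settings. Among 6 further inhibitors of cyclin-dependent kinases, 1 rose and 1 fell, beside 3.92% and 2.47% of all genes. Cdkn2b, which encodes p15 and neighbours Cdkn2a in the genome, had 8.35, 7.92 and 8.15 CPM in the KO libraries, against 2.00, 3.54 and 3.82 CPM in the WT libraries. The groups were far apart, with a 2.60-fold level or a log2 fold change of 1.38 ± 0.21 (adjusted p = 0.00289). Cdkn1b, which encodes p27, had a log2 fold change of -0.30 ± 0.08 (adjusted p = 0.0409), and did not pass in 4 of the 6 comparisons that left out a library (adjusted p of up to 0.197).

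Genes that T cells induce within the first hours of stimulation were read alongside, 18 in all. Whether they share control with members of the set was not tested. Of the 18 genes, 6 rose and 1 fell, so that 38.9% passed, beside 6.39% of all genes tested. Of their fold changes 17 of 18 were positive, with a median of 0.16 on the log2 scale. The list was fixed with earlier results of these data known, so its share and signs are not a test of such genes. The transcription factor genes Egr3, Egr1, Fosb and Fos had log2 fold changes of 1.18 ± 0.13, 1.02 ± 0.06, 0.95 ± 0.10 and 0.88 ± 0.22 (adjusted p of 5.54e-04, 3.06e-06, 3.77e-04 and 0.0455). The phosphatase gene Dusp2 rose by 0.40 ± 0.05 (adjusted p = 0.00113), and the nuclear receptor gene Nr4a3 by 0.38 ± 0.07 (adjusted p = 0.00709). Myc, a driver of growth, had a log2 fold change of -0.27 ± 0.07 (adjusted p = 0.0466). Fos and Myc did not pass in 5 of the 6 comparisons that left out a library (adjusted p of up to 0.160 and 0.210), and Nr4a3 in 2 of them (up to 0.0793). FoxO factors are known to control many resting T cell genes and Sesn3, and their part in the Sesn3 values was not tested. Of 13 genes linked to FoxO, 2 fell (15.4%, beside 2.47% of all genes tested), and all 13 fold changes were negative, with a median of -0.14. That list too was fixed with earlier results known. Foxo1, the main FoxO factor of T cells, had a log2 fold change of -0.45 ± 0.06 (adjusted p = 0.00134), and Btg1, an antiproliferative relative of Btg2, one of -0.22 ± 0.04 (adjusted p = 0.0119). Btg1 did not pass in 3 of the 6 comparisons that left out a library (adjusted p of up to 0.0988).

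**Figure D4:**
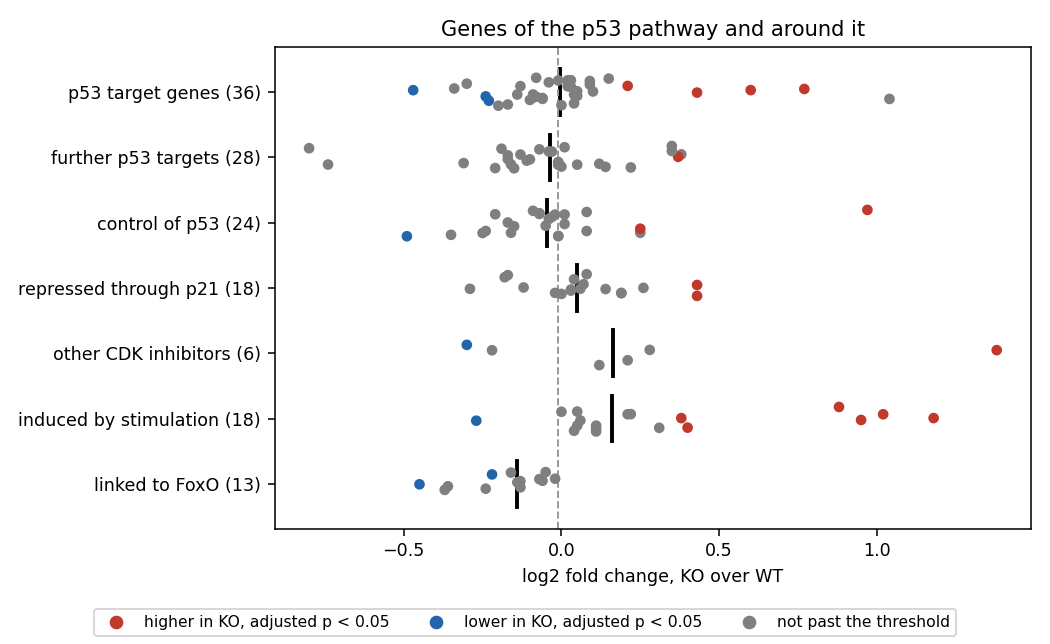
Log2 fold change (KO over WT) of every tested gene in the p53 target set and in the neighbouring gene lists, 1 row for each list. Each point is 1 gene and colours mark an adjusted p under 0.05 in edgeR, black marks are list medians and the dashed line is the median of all genes tested. The stimulation-induced genes lie mostly to the right of zero, with 6 past the threshold above it, and all 13 FoxO-linked genes lie to the left.

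Other properties of the libraries moved with the groups. Summed levels of T helper 17 markers were 96.4 to 98.2 CPM in the KO libraries and 186 to 284 CPM in the WT libraries, and 4 of the 6 markers fell. Markers of gamma delta T cells summed to 95.8 to 101 CPM in the KO libraries and 50.7 to 62.6 CPM in the WT libraries, and 4 of 5 rose. Sums for B cells were 96.9 to 103 CPM in the KO libraries and 68.3 to 81.6 CPM in the WT libraries, with 2 of 4 tested markers risen and 1 fallen. Sums for dendritic cells were 207 to 216 CPM in the KO libraries and 148 to 156 CPM in the WT libraries, with 2 of 4 tested markers risen. Myeloid markers summed to 11.7 to 12.8 CPM in the KO libraries and 6.46 to 7.04 CPM in the WT libraries, with 1 of 5 tested markers risen. Erythroid markers summed to 56.5 to 62.2 CPM in the KO libraries and 41.8 to 45.2 CPM in the WT libraries, with the 1 tested marker risen. Sums of the CD4 T cell markers were 1550.4 to 1576 CPM in the KO libraries and 1629 to 2053 CPM in the WT libraries, and those of the stromal and endothelial markers 27.3 to 29.3 CPM in the KO libraries and 29.6 to 34.4 CPM in the WT libraries. These sums did not overlap between groups, and each had p = 0.1 in a two-sided exact permutation test, the smallest p that 3 against 3 allows. NK cell and CD8 T cell sums overlapped (exact permutation p of 0.3 and 1.00). Ncr1, Klrb1c and Klra8 of NK cells and Siglech of plasmacytoid dendritic cells were at 0 in every library. The part of these markers in the values of the p53 target genes was not tested.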

How the data were processed

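RNA-seq was analysed for 6 libraries, 3 labelled KO and 3 labelled WT. Chromatin assays made up the other 7 of 13 samples and were not used here. The deposited values are raw counts of reads over exons, summed by gene. Per the file headers, the authors counted with featureCounts 2.0.1 on GENCODE vM33. The column of WT replicate 2, entered as other in the record of units for a technical reason, holds deposited raw counts too. The headers record no strand option for 5 libraries, and list none by name for KO replicate 1, so reads of overlapping genes cannot be told apart. By RefSeq spans, 15 of the 37 genes overlap another gene and 5 (Plk3, Ccnd1, Apaf1, Dram1 and Ddb2) a protein-coding one. Neither the aligner version nor the build is given in the sources used here. Low counts were more often even than odd (65.6% to 67.7% of counts from 1 to 20), so depth may rest on fewer fragments than counts.

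Totals ran from 35708879 to 38395131 counts in the KO libraries and from 38099488 to 45232055 counts in the WT libraries. Symbols were matched for 51948 of 56941 IDs (91.2%), and unmatched rows stayed in the tests with 0.181% to 0.204% of counts. No 2 libraries matched within sampling noise (lowest chi-square per degree of freedom 4.19). The labels call the libraries biological replicates and do not tie them to separate animals, so the tests rest on the spread among these libraries, which may be technical. Levels are not corrected for gene length and are not compared between genes.

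Counts were tested with edgeR 4.0.16 in R 4.3.3: default filter on low counts, TMM normalization, robust quasi-likelihood fit and F-test, KO over WT, with Benjamini-Hochberg adjustment over all 14681 genes and a threshold of 0.05. Adjusted p-values in the text come from this fit unless another tool is named. The coefficient of biological variation was 9.28%. The error after ± is an SD over 3 libraries for CPM and an SE for a log2 fold change. Alternatives used DESeq2 1.42.0, limma 3.58.1 (voom), other scalings and filters, a replicate block and the omission of each library. The procedure was tested on simulated data. Motifs were searched in RefSeq promoter windows.

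The members, the gene lists and the roles were chosen with earlier results of these data known. All 37 members are accounted for. Those past the threshold, with Trp53, Mdm2 and Cdkn1a, are given in every library; of the other lists, every gene past the threshold is named up to the 6 with the largest change, with Bax, Bbc3, Pmaip1, Fas, Cdkn2a, Atm and Chek1 whatever their result. Myc, Plk1, Trp63, Trp73 and Tctex1d4 were named after their values were seen. Some results on single genes of these lists are not reported here.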

Additional observations from a re-analysis of the deposited data

How the results depend on the processing

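Across 14 alternative settings, the 36 tested p53 target genes gave 503 log2 fold changes. Of these 453 kept their sign and their side of the threshold, 21 no longer passed, 10 newly passed and 19 changed sign. Leaving out 1 library at a time gave 295 to 2961 genes past the threshold in all (938 with every library), 3 to 10 p53 target genes (7), 2 to 5 of them higher (4), 1 to 5 lower (3), and 9 to 42 genes of the neighbouring lists (17 of 107 tested). The highest counts came without WT replicate 1, whose quality weight was 0.284, and the cause was not tested. Quality weights in limma-voom gave 2862 genes in all, 11 p53 target genes (5 lower) and 40 genes of the neighbouring lists. Without the filter on low counts, 26083 genes were tested, with 1568 past the threshold (6.01%) and 26 genes of the neighbouring lists. DESeq2 gave 8 p53 target genes, beside 9.58% of all genes. Adding a replicate block left 671 genes past the threshold, 5 of them p53 target genes, and Perp and Phlda3 did not (adjusted p of 0.0708 and 0.0945). The numbers do not pair the samples: same-numbered KO and WT libraries had deviations from their group means that correlated at -0.04, -0.03 and 0.00. The sign changed in genes near 0. With quality weights, Btg2 was at 0.02 and Gadd45a at 0.01. With a library left out, log2 fold changes ran from -0.05 to 0.03 for Ccng1, -0.09 to 0.05 for Btg2, -0.12 to 0.06 for Gadd45a, 0.00 to 0.07 for Gtse1, -0.06 to 0.06 for Fbxw7, -0.06 to 0.11 for Pidd1, -0.04 to 0.08 for Apaf1, -0.02 to 0.12 for Ddb2, -0.20 to 0.03 for Dcxr, 0.00 to 0.11 for Cd80 and -0.08 to 0.01 for Bax. The difference in CD8 T cell marker sums (KO minus WT) was 0.159 CPM, and -0.147 CPM when the raw library total was used. Intervals were wider for genes under 10 CPM, as given above.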
